A study of Mus musculus with 19 samples.

Results

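The 78 genes described here encode the proteins named mitochondrial ribosomal proteins, followed in mouse kidney after ischemia-reperfusion injury (IR, in which the blood supply is stopped and then restored). They were chosen by name: each table entry whose Entrez Gene identifier maps to a mouse symbol starting with Mrpl (large subunit) or Mrps (small subunit) and a digit, with an FPKM of at least 1 in at least 4 libraries. FPKM is the number of sequenced fragments per unit of transcript length and of sequencing depth. The rule took 78 of the 19287 entries, and 78 of the 78 were among the 13594 entries that passed the same filter on low values and were tested; none was at 0 FPKM in any library. The kidneys came from male C57BL/6 mice, and those of the injured groups were taken 5 days after injury. For the sham kidneys the labels used here give no day. There were 5 sham libraries and 5 IR libraries, for which no gavage is stated, 5 IRLac libraries and 4 IRLacz libraries. In both of the latter a Lactobacillus strain was given daily by gavage for 4 weeks before the injury. The series text abbreviates L. casei Zhang as Lac.z and L. acidophilus as Lact; IRLacz was taken as L. casei Zhang and, by elimination, IRLac as L. acidophilus. No injured group is described as gavaged without bacteria, so effects of the strain and of the procedure cannot be told apart. The labels do not say that each library is 1 mouse, so every p-value below measures the spread between libraries.

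Mitochondria carry their own ribosomes, which translate the few proteins encoded by the mitochondrial genome, all of them core subunits of the respiratory chain and of the ATP synthase. All proteins of these ribosomes are encoded in the nucleus, made on cytosolic ribosomes and imported; many descend from bacterial ribosomal proteins, and the rest were acquired during mitochondrial evolution. The proximal tubule of the kidney is rich in mitochondria, because reabsorption is driven by oxidative phosphorylation. The nuclear factors NRF1, GABP (of the ETS family) and YY1 are known to act at promoters of many nuclear genes for mitochondrial proteins.

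The promoters of 69 of the 78 genes (75 windows of 300 bases, 250 before and 50 after the annotated start, RefSeq, GRCm38.p6) were searched on both strands for 3 motifs of these factors, and 9 genes were not in that table. The first was the NRF1 palindrome with 1 central base left free. The other two were the ETS motif CCGGAAG and the YY1 motif AAGATGGC; no search was made for overlaps between them. The NRF1 motif was present in 17.3% of the members' windows and in 6.38% of the windows of all protein-coding genes. The ETS motif was present in 34.7% against 11.6%, and the YY1 motif in 12 of 75 windows against 3.05%. At least 1 of the 3 was present in 57.3% of the members' windows and in 18.9% of the windows of protein-coding genes. The shares were also set beside the direction of change after injury given below, over 11 windows of genes that were higher and 25 of genes that were lower. The NRF1 motif was present in 1 of the former and 5 of the latter, the ETS motif in 5 and 6, and the YY1 motif in 1 and 4. In the 39 windows of members not called in either direction, the NRF1 motif was present in 7, the ETS motif in 15 and the YY1 motif in 7. These are counts of few windows, given with no test. A match is a run of letters and not a measured binding site. The 100 bases before the start are printed for some members, with the motif in capitals. They are those of 2 members that fell after injury, picked because they hold a match, and of the 2 that rose most. No match lay in the same stretch of Mrps36, Mrpl16 and Mrpl10, which also fell, or of Mrpl23 and Mrps18c, which also rose. The printed stretches show a promoter with an NRF1 match, 2 with an ETS match and 1 with none of the 3.
Mrpl12 (chr11:120484537-120484636, plus strand; NRF1 match): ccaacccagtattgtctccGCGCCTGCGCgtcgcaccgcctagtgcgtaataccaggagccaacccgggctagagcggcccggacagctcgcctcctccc
Mrpl34 (chr8:71464826-71464925, plus strand; ETS match): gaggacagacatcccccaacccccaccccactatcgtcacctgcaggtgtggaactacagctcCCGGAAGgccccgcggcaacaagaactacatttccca
Mrpl52 (chr14:54426809-54426908, plus strand; ETS match on the other strand): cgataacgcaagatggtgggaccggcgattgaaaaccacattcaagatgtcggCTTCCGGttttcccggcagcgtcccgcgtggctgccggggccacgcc
Mrpl33 (chr5:31613851-31613950, plus strand; no match in these bases): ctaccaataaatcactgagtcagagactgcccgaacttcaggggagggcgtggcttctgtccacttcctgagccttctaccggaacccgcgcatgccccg

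The libraries differed in cell markers as well as in the members. Summed over 7 proximal tubule markers, FPKM was 3740 to 4277 in sham, 1279 to 2002 in IR, 1210 to 2129 in IRLac and 1089 to 2541 in IRLacz libraries. Summed over 8 macrophage markers it was 98.79 to 135.1, 1299 to 1867, 771.5 to 1730 and 525.9 to 1236. All 7 proximal tubule markers fell and all 8 macrophage markers rose in IR against sham, and no marker was at 0 in any library. In bulk tissue, fewer cells of a type and less RNA per cell cannot be told apart, and the part of these shifts in the results on the members was not tested. A pair of gavaged libraries stood apart within their groups. IRLac replicate 3 and IRLacz replicate 1 had the highest proximal tubule sums of their groups (2129 and 2541) and the lowest macrophage sums (771.5 and 525.9). They also had the highest mean log2 level of 76 respiratory chain genes (8.456 and 8.45, against 7.798 to 8.189 in the other 7 gavaged libraries). Results that rest on them are given with and without them.

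The members spanned a 108-fold range of mean level over the 19 libraries, from 2.115 FPKM for Mrpl22 to 228.2 for Mrps21, with a median of 42.3. At this per-length scale 73 of 78 averaged at least 10 FPKM and 9 at least 100. Within a group most members varied little between libraries: the median coefficient of variation was 6.25% in sham, 7.315% in IR, 8.395% in IRLac and 7.83% in IRLacz. Mrps23 and Mrpl22 were the exceptions, with coefficients above 50% in sham, IR and IRLac. Mrpl22 was at 0.5 to 5.47 FPKM in sham and 0.13 to 10.08 in IR, and Mrps23 at 1.8 to 9.95 and 1.13 to 33.19. In both genes IR replicate 3 and IRLac replicate 3 were the highest libraries of their groups. Neither passed the test at this spread (adjusted p = 0.64 and 0.84 for IR against sham, limma).

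On the deposited FPKM scale the mean level of the whole set overlapped between the groups. With median-ratio and quantile scaling the members' median difference in IR against sham was -0.4015 and -0.2027, against -0.064 as deposited. The mean of log2(FPKM + 1) over the 78 members was 5.374 ± 0.0194 (SD, n = 5) in sham, 5.322 ± 0.0509 (n = 5) in IR, 5.334 ± 0.11 (n = 5) in IRLac and 5.324 ± 0.0438 (n = 4) in IRLacz on that scale, and the 4 groups overlapped. IRLac replicate 3 was the highest of all libraries at 5.515, with the other IRLac libraries at 5.236 to 5.359. Summed FPKM of the members was 4297 to 4511 in sham and 3888 to 4314 in IR, which is 0.7509 to 0.7823% and 0.7127 to 0.7656% of all FPKM in a library. Over the same libraries the median of all tested entries went from 3.231 to 3.277 in sham to 3.605 to 3.649 in IR, with no overlap.

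**Figure D1:**
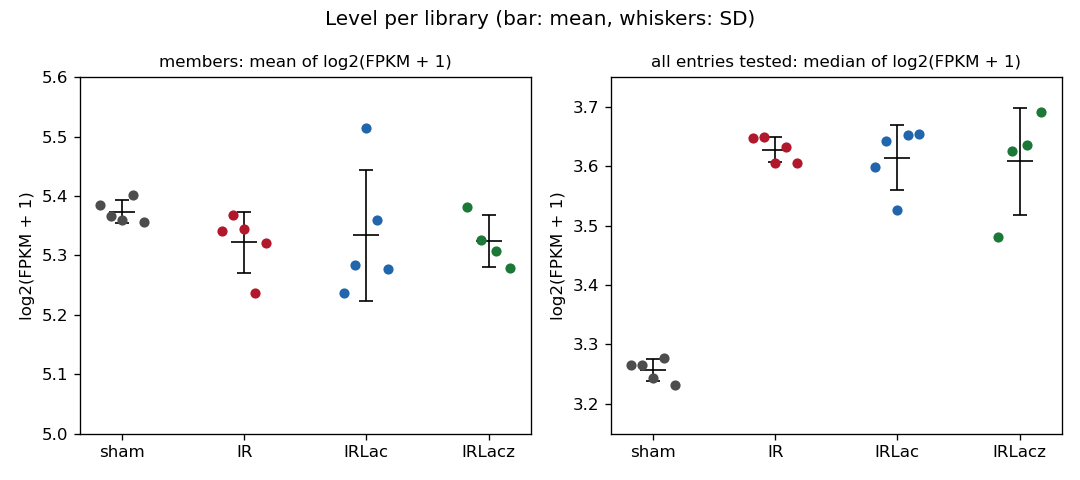
Mean log2(FPKM + 1) of the 78 members (left) and median log2(FPKM + 1) of all 13594 tested entries (right), from the FPKM as deposited, in each library of the 4 groups; points are libraries, bars the mean and whiskers the SD, and neither axis starts at 0. The member means overlap between groups, with IRLac replicate 3 highest at 5.515, while the median of all entries is 3.231 to 3.277 in sham and 3.605 to 3.649 in IR.

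Behind that level mean, single members moved both ways after injury. In IR against sham 26 of the 78 members fell and 13 rose at an adjusted p below 0.05 (limma on log2(FPKM + 1), Benjamini-Hochberg over 13594 entries), that is 33.3% and 16.7%. Among all tested entries 18.6% were lower and 57% were higher. The members therefore had a larger share of lower and a smaller share of higher calls than the table as a whole. The median difference over the members was -0.064 (range -0.55 to 0.79), against 0.29 over all tested entries, and 73 of 78 lay below that median. The fallen members were Mrpl2, Mrpl4, Mrpl10, Mrpl12, Mrpl16, Mrpl18, Mrpl20, Mrpl28, Mrpl34, Mrpl37, Mrpl38, Mrpl39, Mrpl42, Mrpl44, Mrpl46, Mrpl49, Mrpl50, Mrps5, Mrps7, Mrps21, Mrps22, Mrps26, Mrps31, Mrps33, Mrps35 and Mrps36. Those that rose were Mrpl15, Mrpl17, Mrpl19, Mrpl23, Mrpl24, Mrpl33, Mrpl36, Mrpl40, Mrpl52, Mrps17, Mrps18b, Mrps18c and Mrps25. The other 39 did not pass the test, with differences from -0.17 (Mrps24) to 0.28 (Mrpl22).

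**Figure D2:**
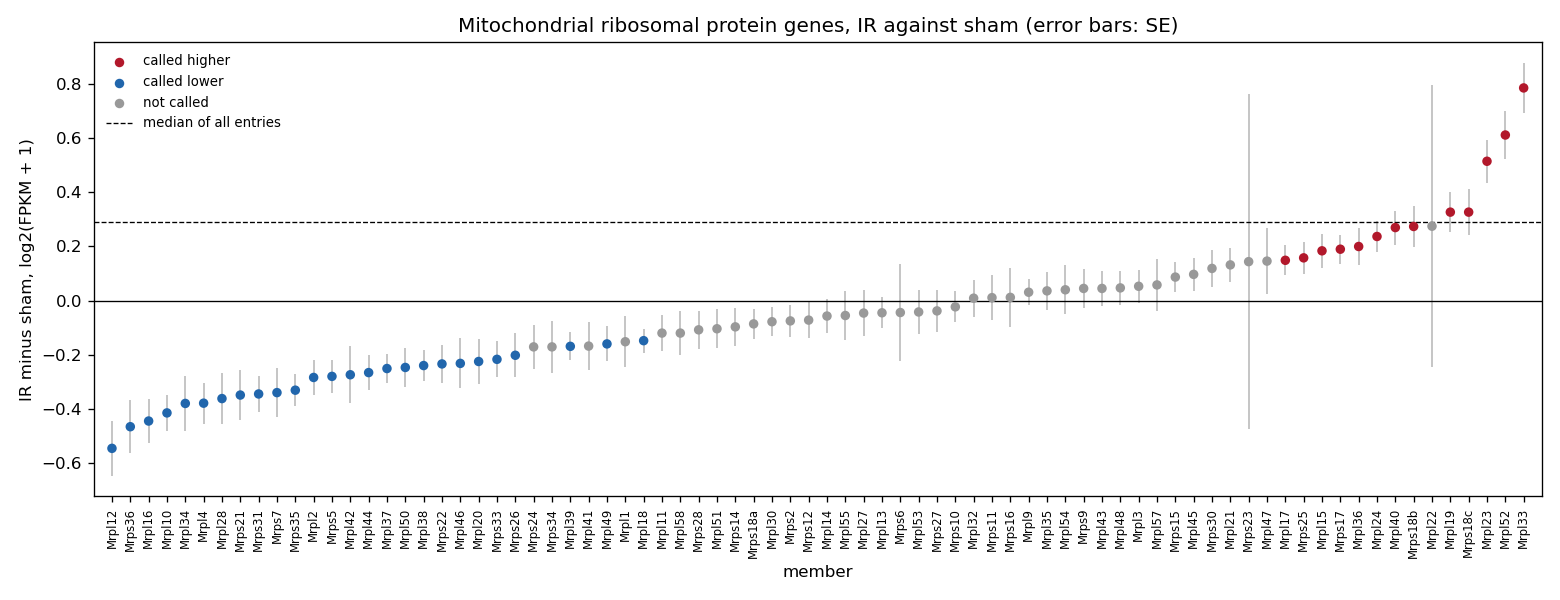
Difference of each of the 78 members in IR against sham, on the log2(FPKM + 1) scale, ranked from lowest to highest; points are estimates, error bars the SE, colours the call at an adjusted p of 0.05, and the dashed line the median of all entries. The differences run from -0.55 (Mrpl12) to 0.79 (Mrpl33), and 73 of 78 lie under the dashed line.

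How many members moved each way depended on the scaling between libraries, because most entries of the table were higher in IR. With the medians of the libraries aligned by size factors (median-ratio scaling) the median of all entries became 0.0037, and 62 members were lower and 3 higher (35.3% and 35% of all entries). With quantile scaling 44 were lower and 5 higher (38.9% and 31.1% of all entries), and with TPM 25 and 14 (17.4% and 58.7%). Of the 26 members lower on the deposited scale, 24 were lower under all 4 scalings; Mrpl42 and Mrpl49 were the exceptions. Of the 13 higher members, 3 were higher under all 4: Mrpl33, Mrpl52 and Mrpl23. The other 10 lost the call under median-ratio scaling, where Mrpl17 was called lower instead. Under quantile scaling Mrpl17 (-0.22) and Mrps25 (-0.204) were called lower. Of the 39 members not called on the deposited scale, 35 were called lower under median-ratio scaling.

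**Figure D3:**
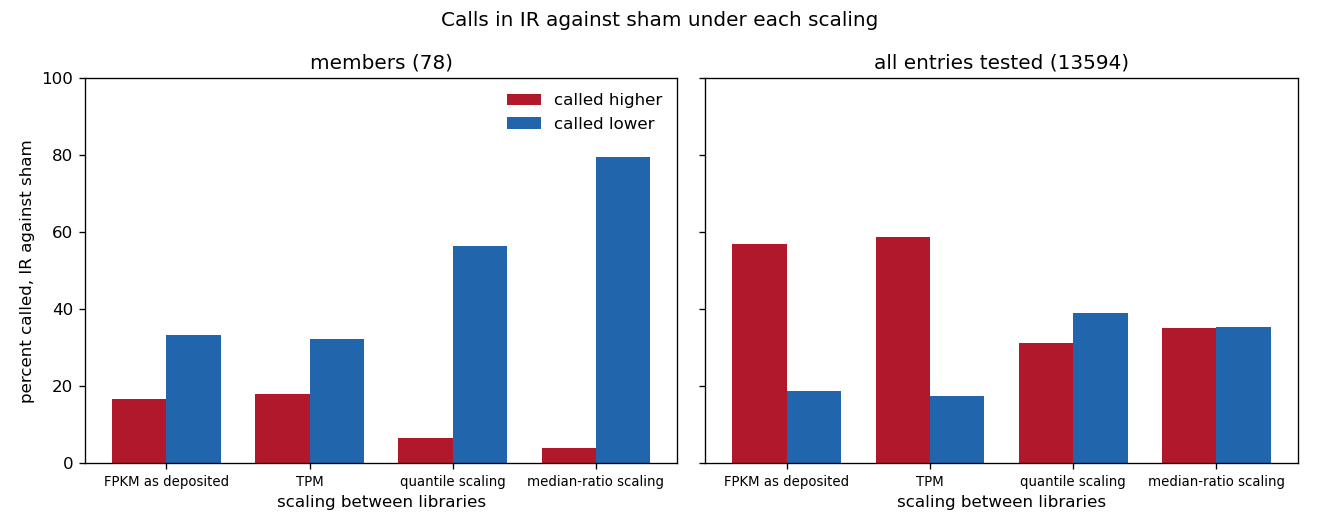
Percent of the 78 members (left) and of all 13594 tested entries (right) called higher or lower in IR against sham, with the FPKM as deposited and under 3 other scalings. Lower calls among the members go from 33.3% as deposited to 79.5% with median-ratio scaling, and higher calls from 16.7% to 3.85%.

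The largest fall was in the stalk of the large subunit, the flexible arm that recruits translation factors. Mrpl12 (Entrez Gene 56282), the stalk protein itself, was at 254.25, 248.15, 280.14, 251.52 and 255.22 FPKM in the sham libraries and at 173.97, 174.34, 172.06, 173.40 and 187.36 in the IR libraries. The groups did not overlap, and the fall of 31.7% in the mean was 0.55 on the log2 scale (SE 0.101, adjusted p = 8.7e-05, limma). Mrpl10 (107732), which anchors Mrpl12 to the subunit, was at 52.66, 51.44, 54.79, 52.52 and 52.83 FPKM in sham and at 41.58, 36.34, 36.35, 42.18 and 40.92 in IR. All 5 IR libraries were below all 5 sham libraries, with a difference of -0.41 (SE 0.066, adjusted p = 1.8e-05, limma). Mrpl11, at the base of the stalk, did not pass the test: 14.52 ± 0.884 FPKM in sham and 13.31 ± 1.42 in IR (SD, n = 5 each; adjusted p = 0.1, limma). Its IR replicate 2 stood at 15.81 with the others at 12.38 to 13.02, and without that library it was called lower (adjusted p = 0.00965, limma). For Mrpl12 and Mrpl10 an annotated non-coding gene overlaps exons on the opposite strand, and reads from the pair cannot be told apart without strand.

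Other proteins of the large subunit also fell. Mrpl16 (94063), the counterpart of a bacterial protein near the tRNA sites, was at 43.64, 38.33, 43.87, 46.07 and 41.92 FPKM in sham and at 32.26, 30.50, 31.25, 30.31 and 31.21 in IR. The IR libraries were tightly grouped below all sham libraries (-0.45, SE 0.08, adjusted p = 6.9e-05, limma). Mrpl34 (94065), one of the smallest proteins of the subunit, was at 167.97, 153.91, 172.72, 165.27 and 153.05 FPKM in sham and at 121.80, 143.15, 112.53, 110.04 and 139.07 in IR. Here too no IR library reached the sham range (-0.38, SE 0.102, adjusted p = 0.0025, limma). Mrpl44, which has an RNase III-like fold, was at 35.08 ± 1.03 FPKM in sham and 29.0 ± 0.563 in IR (adjusted p = 0.0011, limma).

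Further members of the large subunit, some of them near the peptidyl transferase centre or the exit tunnel, differed among themselves. Mrpl2, which borders that centre, fell from 86.54 ± 3.74 to 71.02 ± 5.33 FPKM. Mrpl3, in the same region, stood at 25.11 ± 1.58 in sham and 26.08 ± 1.54 in IR (adjusted p = 0.43, limma). Mrpl45, which lies at the tunnel exit near the inner membrane, stood at 23.07 ± 0.629 and 24.86 ± 2.6 (adjusted p = 0.16, or 0.0103 and higher without IR replicate 4, limma). Mrpl58, a peptidyl-tRNA hydrolase built into the large subunit, stood at 93.02 ± 6.04 and 85.75 ± 9.13, and Mrpl41 at 14.76 ± 1.09 and 13.04 ± 1.18; neither passed the test (adjusted p = 0.18 and 0.095, limma). Under median-ratio and quantile scaling Mrpl3 and Mrpl45 were both called lower (Mrpl3 at -0.279 and -0.179, Mrpl45 at -0.234 and -0.15).

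Members of the small subunit also fell. Mrps21 (66292), the most abundant member per length, was at 280.04, 260.65, 271.26, 273.38 and 260.08 FPKM in sham and at 214.96, 222.87, 196.84, 191.34 and 231.82 in IR. The groups did not overlap (-0.35, SE 0.094, adjusted p = 0.0026, limma). Mrps35 (232536), a protein with no bacterial counterpart, was at 47.12, 44.15, 43.18, 45.68 and 45.25 FPKM in sham and at 38.43, 35.19, 31.77, 34.35 and 38.81 in IR. All IR libraries were lower (-0.33, SE 0.059, adjusted p = 6.1e-05, limma). Mrps22, also specific to mitochondria, fell from 19.25 ± 1.37 to 16.19 ± 0.713 FPKM (adjusted p = 0.0053, limma). Mrps12, at the decoding centre, did not pass the test at 77.38 ± 4.98 and 73.59 ± 4.86 FPKM, nor did Mrps2, at 22.59 ± 1.9 and 21.35 ± 0.839 (adjusted p = 0.33 and 0.25, limma). Mrps16 stood at 66.46 ± 9.07 and 66.67 ± 5.23 and Mrps34 at 105.8 ± 7.42 and 93.75 ± 5.54 (adjusted p = 0.93 and 0.12, limma). Mrps6 was among the most abundant members and spread widely, with 145.7 ± 25.7 FPKM in sham and 107.7 to 245.32 in IRLac; its exons overlap those of Slc5a3 on the same strand.

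Mrps36 carries a ribosomal name but is known as a component of the 2-oxoglutarate dehydrogenase complex of the citric acid cycle. It had the second largest fall of the set (66128). FPKM was 81.14, 79.98, 77.30, 89.02 and 80.98 in sham and 60.80, 61.29, 52.10, 57.44 and 62.97 in IR, with no overlap (-0.47, SE 0.098, adjusted p = 0.0003, limma). RefSeq lists 3 pseudogenes of Mrps36, so its level is uncertain to the extent that reads were shared with them.

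The 3 members that rose most were in the large subunit. Mrpl33 (66845), a small protein near the tRNA exit site, was at 77.68, 65.19, 53.86, 65.97 and 75.89 FPKM in sham and at 119.25, 132.26, 112.54, 111.56 and 108.43 in IR. The lowest IR library was well above the highest sham library, and the mean rose 1.72-fold (0.79, SE 0.092, adjusted p = 5.5e-07, limma). Mrpl52 (68836), which has no bacterial counterpart, was at 107.31, 118.83, 108.63, 107.99 and 109.79 FPKM in sham and at 190.13, 202.35, 178.53, 137.07 and 147.49 in IR. It rose 1.55-fold with a wide spread among the IR libraries but no overlap (0.61, SE 0.09, adjusted p = 7.5e-06, limma). Mrpl23 (19935), at the exit tunnel, was at 61.45, 59.00, 62.90, 54.14 and 60.06 FPKM in sham and at 88.54, 90.20, 92.48, 79.59 and 77.13 in IR. It rose 1.44-fold, again with no overlap (0.51, SE 0.079, adjusted p = 1.1e-05, limma). Exons of Mrpl33 overlap a non-coding gene on the same strand and Mrpl23 has a RefSeq pseudogene, so part of their reads could belong elsewhere; neither applies to Mrpl52.

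The 3 proteins related to bacterial S18 differed. Mrps18c (68735), the S18 counterpart in the small subunit, was at 46.35, 42.93, 47.02, 41.35 and 51.39 FPKM in sham and at 57.03, 58.60, 60.75, 57.72 and 53.89 in IR. It rose without overlap (0.33, SE 0.085, adjusted p = 0.002, limma). Mrps18b rose from 38.86 ± 2.43 to 47.41 ± 5.78 FPKM (adjusted p = 0.0036, limma). Mrps18a, which sits in the large subunit, is counted below with Mrps18b among the members specific to mitochondria, since Mrps18c was taken as the bacterial counterpart; it stood at 79.93 ± 4.24 and 75.21 ± 2.57 (adjusted p = 0.16, limma). Under median-ratio scaling the differences of Mrps18c and Mrps18b were -0.011 and -0.063, below 0 and not called. Exons of Mrps18c overlap another annotated gene on the same strand, and those of Mrps18b an antisense gene on the opposite strand. Mrps30, the other large-subunit protein with an Mrps name, stood at 30.08 ± 2.73 and 32.68 ± 1.59 (adjusted p = 0.12, limma). Mrpl19 (56284), at the interface of the subunits, was at 4.31, 4.83, 5.22, 4.37 and 4.58 FPKM in sham and at 6.80, 5.95, 6.49, 5.35 and 5.95 in IR (0.33, SE 0.073, adjusted p = 0.00053, limma). Its groups did not overlap, but its difference was -0.12 under quantile scaling and its exons overlap those of Gcfc2 on the opposite strand. In all, exons of 26 members overlap another annotated gene, a protein-coding one for 17.

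The split ran through both subunits. Mrps36, described above as a component of another complex, was left out of the counts by subunit and by origin. In the large subunit 9 of 51 members rose and 17 fell (median difference -0.055), and in the small subunit 4 of 26 rose and 8 fell (median -0.073). Of 46 members with a bacterial counterpart 9 rose and 12 fell (median -0.045), and of 31 specific to mitochondria 4 rose and 13 fell (median -0.12). Each of these medians was below the 0.29 of all tested entries, of which 57% rose and 18.6% fell. Under median-ratio scaling 41 large-subunit members were lower and 3 higher, and 20 small-subunit members lower and 0 higher. With that scaling 35 with a bacterial counterpart were lower and 2 higher, and 26 specific to mitochondria lower and 1 higher, beside 35.3% and 35% of all entries. No test of a difference between these subsets was made.

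Other genes of mitochondrial gene expression were counted in lists chosen by function, on the deposited scale, where 57% of all tested entries were higher and 18.6% lower. Assembly factors and genome expression genes moved both ways, and translation factors and aminoacyl-tRNA synthetases mostly down. Of 5 mitoribosomal proteins with other symbols 2 fell and 1 rose: Dap3, a GTP-binding protein of the small subunit, went from 51.02 ± 4.46 to 41.89 ± 3.23 FPKM (SD, n = 5 each) and Aurkaip1 from 70.87 ± 4.58 to 62.56 ± 2.83, while Chchd1 was higher. Under median-ratio and quantile scaling 0 of these 5 were higher. Of 25 assembly factors 4 rose and 5 fell (median difference 0.027). Rpusd4, a pseudouridine synthase acting on the mitochondrial ribosomal RNA, rose from 7.724 ± 0.669 to 11.08 ± 0.837 FPKM (adjusted p = 5.2e-06, limma), a call that quantile scaling ended, as 0 of the 25 were then higher. Mettl15, a methyltransferase of the small-subunit RNA, fell from 3.384 ± 0.3 to 2.384 ± 0.44 (adjusted p = 0.0065, limma). Of 15 translation factors tested 7 fell and 0 rose (7 at an unadjusted p below 0.05), with the elongation factor Gfm1 falling from 53.17 ± 2.39 to 28.22 ± 2.93 FPKM. Of 17 mitochondrial aminoacyl-tRNA synthetases, which charge tRNAs, 9 fell and 1 rose. Lars2, for leucine, fell from 12.91 ± 0.822 to 7.906 ± 0.97 FPKM (adjusted p = 8.1e-06, limma). Of 19 genes for the upkeep and transcription of mitochondrial DNA 5 rose and 5 fell. Tfb2m, a transcription initiation factor, fell from 18.18 ± 1.14 to 13.96 ± 1.35 FPKM (adjusted p = 0.00017, limma). In the assembly and genome expression lists the balance turned to 19 and 13 lower, with 1 and 0 higher, under median-ratio scaling. Of all tested entries 35.3% were then lower and 35% higher, or 38.9% and 31.1% under quantile scaling.

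The median difference of the members lay between those of the nuclear-encoded respiratory chain subunits and of the cytosolic ribosome. Of 76 such subunits, which are made in the cytosol and assembled with those that mitochondrial ribosomes make, 73 fell and 0 rose in IR against sham (73 at an unadjusted p below 0.05), with a median difference of -0.53. Of 81 cytosolic ribosomal protein entries 79 rose and 1, Rpl3l, fell, with a median of 0.70. Under the 3 other scalings 67 to 75 respiratory chain subunits were lower and 65 to 80 cytosolic ribosomal protein entries higher, so the majority kept its direction under each of the 4 scalings. Across those 3 scalings 17.4% to 38.9% of all tested entries were lower and 31.1% to 58.7% higher. Many cytosolic ribosomal protein genes have near-identical copies, and their single levels are uncertain. Sdha, a subunit of complex II, went from 321.8 to 174.5 FPKM and Rps4x, of the cytosolic small subunit, from 327.6 ± 12 to 605.3 ± 51.9. Of 29 genes for protein import and quality control 16 fell and 4 rose; Clpx, the unfoldase of the Clp protease, fell from 77.19 ± 11.5 to 31.71 ± 4.57 FPKM (adjusted p = 2.6e-08, limma).

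Transcriptional regulators of nuclear genes for mitochondrial proteins were 7 of 11 higher and 3 of 11 lower, or 4 and 4 under median-ratio and 5 and 5 under quantile scaling. Among all tested entries 57% were higher and 18.6% lower, or 35% and 35.3% under median-ratio and 31.1% and 38.9% under quantile scaling. Myc rose from 4.326 ± 1.42 to 27.4 ± 6.06 FPKM (adjusted p = 4.8e-08, limma), and Pprc1, a coactivator of the PGC-1 family, from 3.086 ± 0.201 to 8.758 ± 0.989 (adjusted p = 1.1e-07, limma). Ppargc1a, which encodes PGC-1 alpha, fell from 10.3 ± 1.12 to 5.872 ± 0.942 (adjusted p = 8.6e-05, limma). The members of one coactivator family thus moved in opposite directions. The mRNA of Nrf1, whose motif was searched in the promoters, was higher in IR by 0.60 on the log2 scale (adjusted p = 1.7e-06, limma). Nrf1 was named after its value was seen, and its difference is given on the deposited scale only. For GABP and YY1, whose motifs were also searched, no mRNA values are given here.

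**Figure D4:**
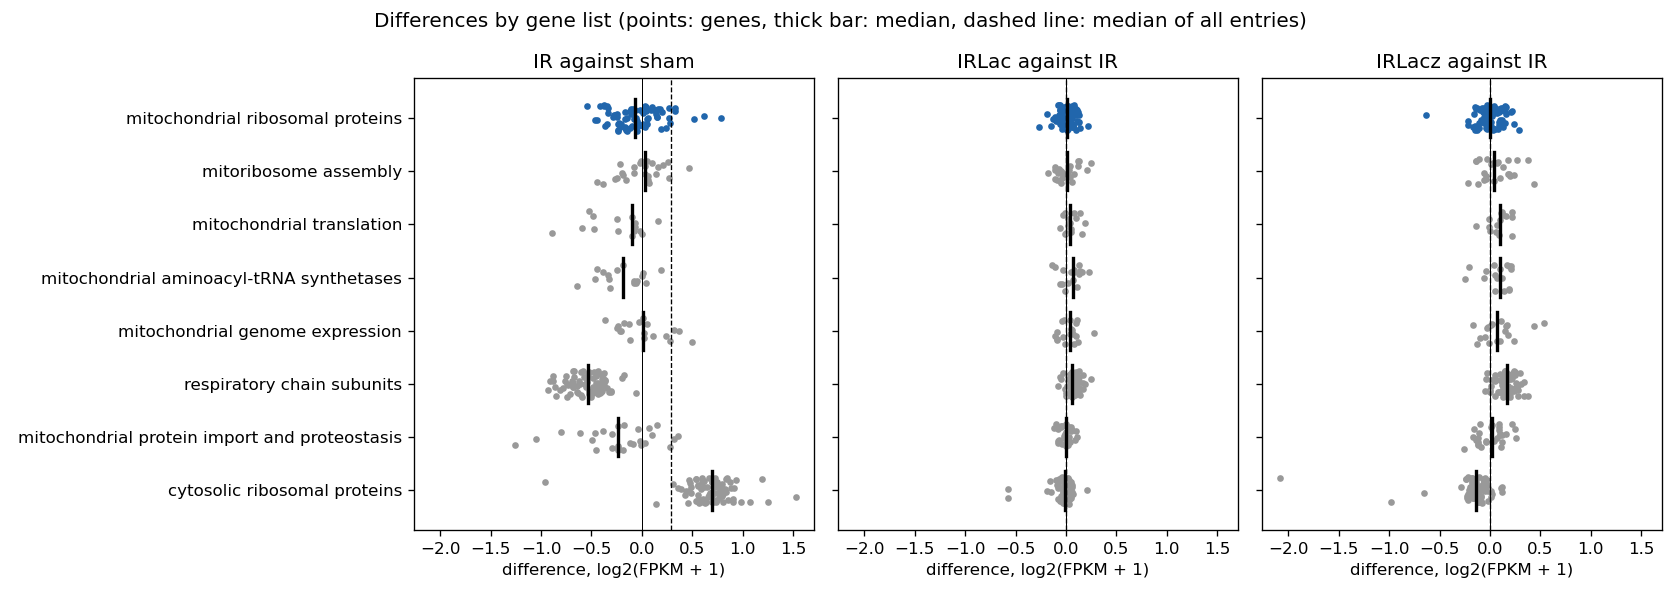
Differences on the log2(FPKM + 1) scale for the genes of 8 lists in IR against sham, IRLac against IR and IRLacz against IR; points are genes, thick bars list medians and dashed lines the median of all entries. In IR against sham the 78 members centre on -0.064, between the respiratory chain subunits (-0.53) and the cytosolic ribosomal proteins (0.70), and in both gavage comparisons the members centre near 0.

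Gavage left most members near their IR levels. In IRLacz against IR 2 of 78 members were higher and 0 lower (10 at an unadjusted p below 0.05), where 5.39% of all tested entries were higher and 7.92% lower. The median difference over the members was 0.0023, with 40 positive and 38 negative. Mrps35 was at 38.43, 35.19, 31.77, 34.35 and 38.81 FPKM in IR and at 46.14, 42.33, 39.67 and 40.37 in IRLacz. Every IRLacz library was above every IR library (0.23, SE 0.063, adjusted p = 0.023, limma), and the IRLacz mean of 42.13 ± 2.9 (SD, n = 4) lay near the sham mean of 45.08 ± 1.5 (n = 5). Mrpl2 was at 72.94, 73.46, 66.78, 64.39 and 77.51 FPKM in IR and at 81.38, 85.77, 82.26 and 80.59 in IRLacz. Here too the groups did not overlap (0.22, SE 0.068, adjusted p = 0.043, limma), with sham at 80.01 to 89.47.

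Both calls were lost with median-ratio scaling and in the fit of only the IR and IRLacz groups (0 of 78 in each), and the Mrpl2 call with a replicate block. Both were also lost when certain single libraries were left out. The Mrps35 call was lost without IR replicate 2 or 3 or IRLacz replicate 1 or 2, with adjusted p up to 0.0703 (limma). The Mrpl2 call was lost in 7 of 9 such fits, without IR replicate 1, 2, 3 or 4 or IRLacz replicate 1, 2 or 3, with adjusted p up to 0.119. Without IRLacz replicate 1, the library with the highest proximal tubule and the lowest macrophage markers of its group, 0 of 78 members were called. Leaving that library out moved the Mrps35 difference from 0.234 to 0.19, and the Mrpl2 difference from 0.216 to 0.223; neither then passed the test. Mrpl19 was at 4.61 to 5.72 FPKM in IRLacz and 5.35 to 6.8 in IR (adjusted p = 0.07, limma), and was called lower without IR replicate 4 or IRLacz replicate 4.

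The IRLacz levels of members with large falls after injury were as follows. Mrpl12 was at 230.15, 201.47, 169.68 and 156.33 FPKM, from near the sham range to below the IR range (adjusted p = 0.6 against IR, limma). Mrps36 was at 83.22, 65.73, 61.53 and 55.88 FPKM, and Mrpl10 at 46.43, 46.79, 43.71 and 38.63 (adjusted p = 0.3 and 0.16, limma). IRLacz replicate 1 was the highest or, for Mrpl10, the next to highest library in each. Mrpl33 and Mrpl52, which rose after injury, were at 100.51 to 121.14 and 135.9 to 171.06 FPKM, ranges that overlap those of IR.

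**Figure D5:**
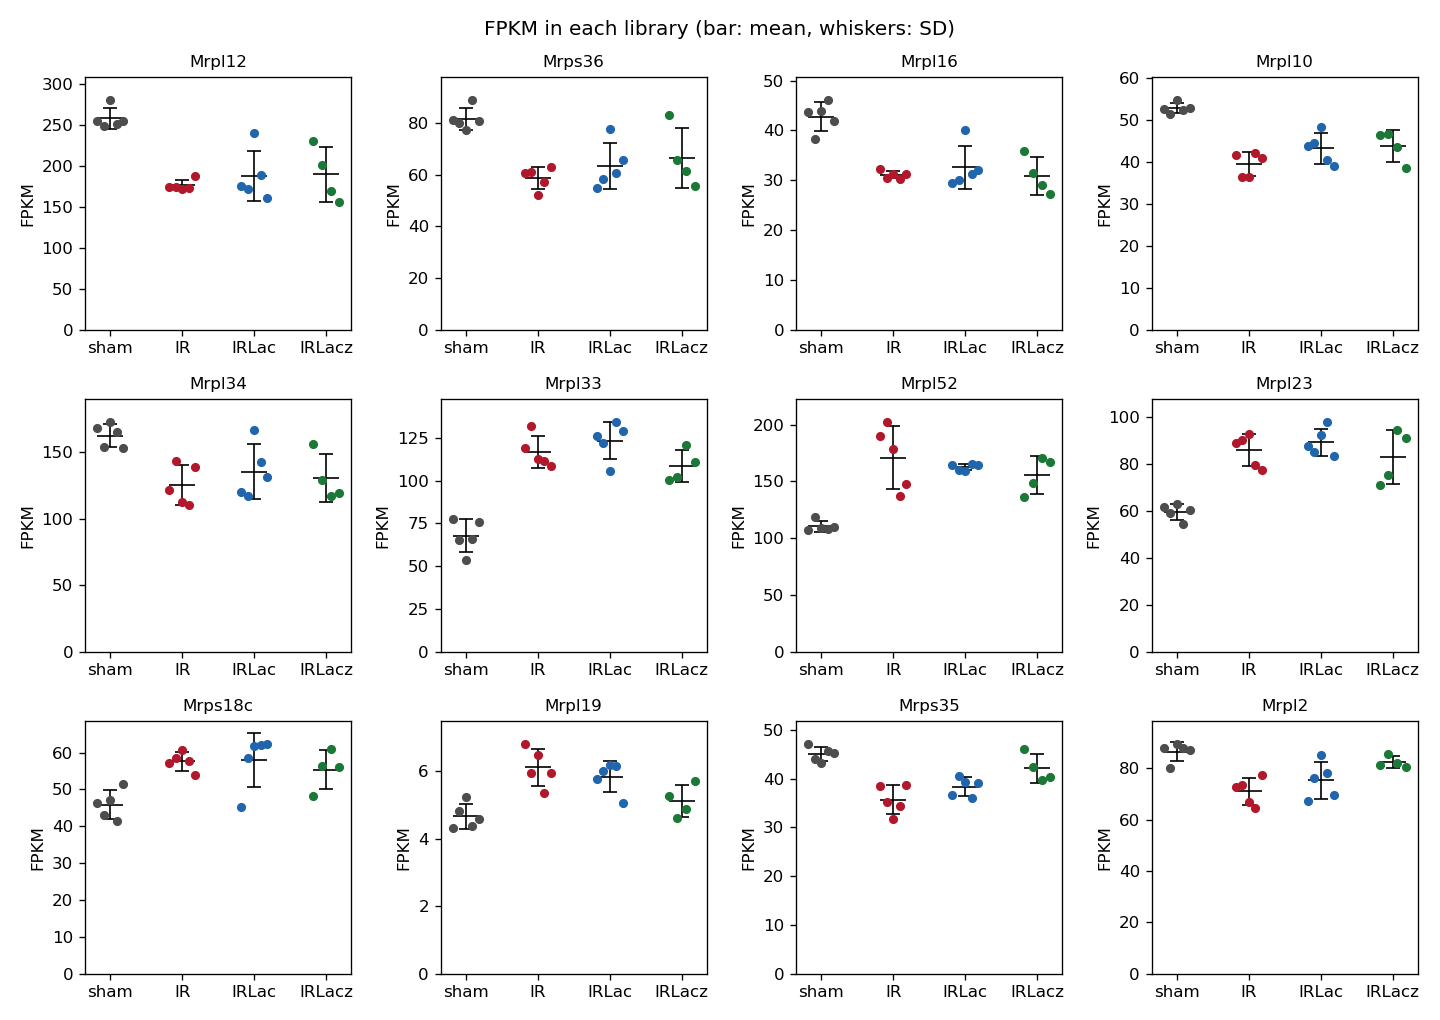
FPKM of 12 members in each library of the sham (n = 5), IR (n = 5), IRLac (n = 5) and IRLacz (n = 4) groups; points are libraries, bars the mean, whiskers the SD, and each axis starts at 0. Mrpl12, Mrps36, Mrpl16, Mrpl10 and Mrpl34 are lower and Mrpl33, Mrpl52, Mrpl23 and Mrps18c higher in IR than in sham without overlap, and Mrps35 and Mrpl2 in IRLacz lie above IR.

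In IRLac against IR 0 of 78 members passed in either direction (lowest adjusted p = 0.858, limma; 1 at an unadjusted p below 0.05, Mrps25), and the same held without IRLac replicate 3. Among all tested entries 0% were higher and 0.00736% lower (0.0441% and 0.809% without IR replicate 5). Mrpl12 was at 175.28, 172.08, 239.72, 189.14 and 161.21 FPKM in IRLac, so that only replicate 3 came near the sham range. The same library was the highest of its group in Mrpl16 (39.99, others 29.52 to 32.1), Mrpl44 (35.36, others 27.56 to 29.28) and Mrps21 (275.79, others 187.33 to 214.25). It was the lowest in Mrpl33 (105.72, others 121.82 to 134.28).

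Between the gavaged groups, IRLacz against IRLac, 0 of 78 members passed (lowest adjusted p = 0.26, limma; 3 at an unadjusted p below 0.05, Mrpl17, Mrps25 and Mrps35), with 0.00736% of all tested entries higher and 0.0147% lower. Without IRLac replicate 3 the shares of all entries were 0.875% and 2.73%, and 0 of 78 members passed. The difference was 0.13 for Mrps35 and 0.14 for Mrpl2 (adjusted p = 0.31 and 0.34, limma). A higher level of these members with 1 strain than with the other was therefore not shown.

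Each gavaged group was also set against sham, a comparison added after the data were seen and sharing the sham libraries with the one above. In IRLac 13 members were higher and 24 lower (58% and 16.8% of all tested entries), with a median difference of -0.073. Here median-ratio scaling gave 3 higher and 64 lower members (33% and 34.5% of all entries), quantile scaling 6 and 41 (30.5% and 35.5%). In IRLacz 10 were higher and 19 lower (56.9% and 13.5% of all tested entries), with a median of -0.065. Here median-ratio scaling gave 1 higher and 64 lower members (30.1% and 32% of all entries), quantile scaling 5 and 39 (25.9% and 31%). Without IRLac replicate 3 the IRLac counts were 13 and 27, and without IRLacz replicate 1 the IRLacz counts were 9 and 26; without IRLacz replicate 3 they were 6 and 15. Mrpl12 differed from sham by -0.47 in IRLac and -0.46 in IRLacz on the log2 scale (adjusted p = 0.00039 and 0.001, limma). Mrpl33 was higher by 0.86 and 0.68 (adjusted p = 2.3e-07 and 1.1e-05, limma). Mrps35 and Mrpl2 were lower than sham in IRLac (-0.23 and -0.20, adjusted p = 0.0019 and 0.0084, limma) and did not pass in IRLacz (-0.097 and -0.068, adjusted p = 0.17 and 0.38, limma).

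Most genes of the pathway lists around the members were not called in the gavage comparisons. In IRLacz against IR 2 of 25 assembly factors and 3 of 19 genome expression genes were higher and 0 lower (1 and 2 higher without IRLacz replicate 1), beside 5.39% and 7.92% of all tested entries. In the same comparison 6 of 8 macrophage, 4 of 5 fibroblast and 6 of 6 cycling-cell markers were lower (1, 3 and 4 without IRLacz replicate 1). Of 5 markers each, 1 of thick limb and distal tubule, 1 of collecting duct and 2 of podocytes were higher (0, 1 and 2 without it). All 5 of thick limb and distal tubule and all 5 of collecting duct had positive differences (medians 0.93 and 0.78). Of the proximal tubule, T cell and endothelium markers 0 were called. The part of these shifts in the results was not tested. Polg2, a subunit of the mitochondrial DNA polymerase, was at 5.405 ± 0.842 FPKM in IRLacz (SD, n = 4) and 3.726 ± 0.41 in IR (n = 5; adjusted p = 0.01, limma). Of the 76 respiratory chain subunits 0 passed in either direction (8 at an unadjusted p below 0.05), and 71 differences were positive (median 0.17). Without IRLacz replicate 1 the median was 0.067, with 0 at an unadjusted p below 0.05. Of 81 cytosolic ribosomal protein entries 3 were lower and 0 higher, and 75 differences were negative (median -0.14). Without that library 1 was lower and the median was -0.041. In IRLac against IR 71 respiratory chain and 37 cytosolic ribosomal protein differences were positive (medians 0.065 and -0.0086). No test over a list was made. Ppargc1a was higher in IRLacz, at 10.49 ± 1.53 FPKM (adjusted p = 0.0063, limma), beside 10.3 ± 1.12 in sham, and Pprc1 was lower, at 5.535 ± 1.18 (adjusted p = 0.012, limma). Of the 11 regulators 1 was higher and 2 lower in IRLacz against IR, or 2 and 1 without IRLacz replicate 1. For the named genes outside the members, calls in that comparison were lost 18 times and gained 5 times with 1 library left out. In the fit of only the IR and IRLacz groups 4 of their calls were lost. In IRLac against IR no gene of these lists passed.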

How the data were processed

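The authors deposited 1 table of FPKM values per Entrez gene for 19 kidney RNA libraries; per the submitters' processing notes HISAT and StringTie 1.0.4 were used with mm9. For the annotation, the strand setting and filters the sources used here give nothing. FPKM is relative, so a rise of abundant transcripts lowers all others. Low values of 27 entries lay on steps (72.7% within 0.1 step), from which the relative depth of the libraries came to 0.965 to 1.02. Only values close to the lowest non-zero value of an entry entered that estimate. This choice narrows the range in advance, so the range does not show that depths were alike. Whole counts were not recovered. Summed FPKM was 545590 to 584798 per library. Of 19287 entries 18238 matched a mouse symbol in the RefSeq table (GRCm38.p6).

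Entries with FPKM of at least 1 in at least 4 libraries (13594) were tested on log2(FPKM + 1), which understates changes of low genes, with limma 3.58.1 (R 4.3.3): 1 model of 4 groups with an intensity trend, 15 residual degrees of freedom, two-sided, Benjamini-Hochberg adjustment, threshold 0.05. The script was tested on simulated data. Alternatives were pseudocount 0.1, no filter, a mean of at least 5 FPKM, TPM, median-ratio and quantile scaling, only the groups compared, a replicate block and each library left out. The comparisons of gavaged groups with sham, the list and subset counts under each scaling or without IRLacz replicate 1, and the levels per library of the marker lists were added after the data were seen. Exon overlaps came from GENCODE M21.

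Members named are those fixed for their role, the 5 largest called changes each way in IR against sham, all calls in IRLacz against IR (the same rule), and the 3 lowest and 3 highest by mean FPKM; from each pathway list, up to 2 called genes with the smallest adjusted p in IR against sham and in IRLacz against IR. Chchd1, Rpl3l and Nrf1 were named after their values were seen. Members and lists were chosen with earlier results of these data known. Marker lists were summed FPKM. The transcription factor tables of the series were not used here.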

Additional observations from a re-analysis of the deposited data

Results flagged for a closer look

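In 124 groups of 4 or 5 libraries (30 named members and the mean log2 level of all members, in each of the 4 study groups), 13 held 1 library far from the others by Dixon's criterion at the 95% level, which chance alone meets in about 1 group of 20. Mrpl12 was at 280.14 FPKM in sham replicate 3 (others 248.15 to 255.22) and at 187.36 in IR replicate 5 (others 172.06 to 174.34). Mrpl11 was at 15.81 in IR replicate 2 (others 12.38 to 13.02). Mrpl52 was at 118.83 in sham replicate 2 (others 107.31 to 109.79), and Mrpl2 at 80.01 in the same library (others 87.31 to 89.47). Mrps18c was at 45.2 in IRLac replicate 1 (others 58.51 to 62.27). IRLac replicate 3 stood out with 39.99 for Mrpl16 (others 29.52 to 32.1) and 35.36 for Mrpl44 (others 27.56 to 29.28).

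The 2 members with the widest spread accounted for 5 of the 13. Mrpl22 was at 5.47 FPKM in sham replicate 1 (others 0.5 to 1.17), 10.08 in IR replicate 3 (others 0.13 to 1.72) and 6.19 in IRLac replicate 3 (others 0.54 to 1.2). Mrps23 was at 33.19 in IR replicate 3 (others 1.13 to 3.99) and 15.44 in IRLac replicate 3 (others 1.45 to 4.41). Neither gene has an exon overlapping another annotated gene, and the cause was not tested.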

How the results depend on the processing

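On IR against sham, median-ratio scaling called 65 members (3 higher, 62 lower; median difference -0.4015) and quantile scaling 5 higher and 44 lower (median -0.2027), against 13 and 26 as deposited; other settings and libraries left out gave 12 to 14 higher and 22 to 29 lower. Among the named genes, median-ratio scaling turned Mrpl3 (-0.279), Mrpl45 (-0.234), Mrps16 (-0.328), Mrps18b (-0.063), Mrps18c (-0.011), Mrps30 (-0.215), Mrps23 (-0.121), Mettl17 (-0.045) and Polg (-0.043) negative, with Mrpl3, Mrpl45, Mrps16 and Mrps30 called lower. Among the same genes, quantile scaling turned Mrpl3 (-0.179), Mrpl45 (-0.15), Mrpl19 (-0.122), Mrps16 (-0.029), Mrps30 (-0.068), Mrpl22 (-0.231), Mrps23 (-0.328), Mettl17 (-0.082) and Polg (-0.009) negative, with Mrpl3 and Mrpl45 called lower. Of the members called higher as deposited, Mrpl17 (-0.22) and Mrps25 (-0.204) were called lower under quantile scaling. Against sham, IRLac gave 67 calls (3 higher, 64 lower; median -0.4155) with median-ratio and 6 higher and 41 lower (median -0.1764) with quantile scaling. IRLacz gave 65 (1 higher, 64 lower; median -0.4036) and 44 (5 higher, 39 lower; median -0.1806), and a median of -0.0279 with TPM; leaving out 1 library gave 6 to 10 higher. By construction median-ratio and quantile scaling align the libraries' overall distributions, which as deposited differed between sham and injured kidneys. For IRLacz against IR, where 2 members were higher, median-ratio scaling and the fit of only those groups gave 0 and quantile scaling 4 higher; leaving out 1 library gave 0 to 4 calls, 0 to 3 higher and 0 to 1 lower. IRLac against IR and IRLacz against IRLac gave 0 calls under all settings run. Single libraries limit the gavage results, and FPKM without counts gives no interval for a single value.

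The replicate block gave 1 higher member in IRLacz against IR (Mrps35; Mrpl2 at adjusted p = 0.077, limma) and 13 higher and 25 lower in IR against sham. Libraries with the same number were not more alike by the median. Over 27 such pairs the correlation of deviations from the group mean was -0.394 to 0.23 (median -0.0668), above 0.1 in 6. The median over pairs with different numbers was 0.0123. With so few libraries in a group, this check could miss a weak or partial pairing.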
